A study of Homo sapiens with 12 samples.

Results

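Transcripts of the proteasome were measured in undifferentiated SNUhES3 cells, a human line of embryonic stem cells (ESCs), and in the embryoid bodies (EBs) that form when such cells float in clumps and differentiate into many cell types. The genes were those whose symbol in the platform annotation begins with PSMA, PSMB, PSMC, PSMD, PSME, PSMF or PSMG and that were detected by a probe on 4 or more of the 12 arrays (detection p-value under 0.01). The annotation named 46 such genes by 71 probes, and 41 of them passed, out of 10562 genes tested in all. Known proteasome genes made up 39 of the 41. The other 2, PSMC3IP and PSME3IP1, are named after a proteasome protein that their product binds. All 41 were detected on all 12 arrays by the probe used. The 5 genes that did not pass were PSMB9, PSMA8, PSMB11, PSMF1 and PSMD6-AS2, an antisense transcript. PSMA7, PSMC5, PSMD7, PSMD13 and PSMG4 were not analysed here.

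There were 3 groups with 4 arrays each, all of the same line. The ESCs grew undifferentiated on growth-arrested mouse STO feeder cells in medium with basic FGF. EBs were lifted off with collagenase and floated in that medium without basic FGF for 1 week or for 2 weeks. The EBs therefore differed from the ESCs in growth factor, feeder cells and form of culture at once. The labels do not say whether the 4 arrays of each group hold separate cultures, and p-values then cover only differences among these arrays, which may be technical. In tissue-like mixtures such as EBs, fewer cells of a type and less RNA per cell cannot be told apart.

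The proteasome degrades proteins that carry chains of ubiquitin. Its 20S core is a barrel of alpha and beta rings, in which PSMB5, PSMB6 and PSMB7 carry the cutting sites, and its 19S cap has ATPases that unfold the substrate and other subunits that bind and remove ubiquitin. Interferon induces replacements of the cutting subunits, PSMB8 for PSMB5, PSMB9 for PSMB6 and PSMB10 for PSMB7, which form the immunoproteasome, together with the PA28 cap made of PSME1 and PSME2. These forms are known for making peptides that are presented on MHC class I molecules, and human ESCs are known to carry high proteasome activity.

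Mean probe intensity ranged over the ESC arrays from 816.5 to 1006, over the 1-week arrays from 902 to 1092 and over the 2-week arrays from 718.3, on array 2, to 1009. Between 14045 and 15905 of 48803 probes were detected per array, and the number of arrays limits the precision. All 6 pluripotent cell markers named on the array were detected on every array of the 3 groups, and 4 of them fell at 2 weeks, while 7 of 8 endoderm and yolk sac markers were undetected in ESCs and 1 of 8 in either EB group. Among the ESC arrays, and among those at 1 week, array 1 was closest to array 2 and array 3 to array 4, with correlations across genes of 0.997 to 0.998 in ESCs against 0.987 for other pairs, and of 0.998 at 1 week against 0.992. At 2 weeks these ranges overlapped (0.992 to 0.998 and 0.990 to 0.995). The proteasome genes varied little within a group: their median SD on the log2 scale was 0.09 in ESCs and 0.08 and 0.10 in the EB groups, against 0.13, 0.10 and 0.12 for all genes. Levels below are log2 values after normalization, differences are between group means with the standard error (SE), and a gene rose or fell where limma's adjusted p was under 0.05.

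Most proteasome genes did not pass the test. At 1 week 6 of the 41 were higher than in ESCs and 7 lower, where 27.1% and 24.8% of all tested genes were. At 2 weeks 7 were higher and 10 lower, against 30.7% and 31.8% of all genes. Between the EB groups 2 were higher and 3 lower at 2 weeks, against 12.4% and 14.1%. A change of at least 2-fold was seen for 0 of the 41 at 1 week, where 6.09% of all genes rose and 3.07% fell by that much, and for 0 between the EB groups, against 0.881% and 0.502%. At 2 weeks 1 of the 41, PSMB8, fell 2-fold, against 8.27% of all genes upwards and 6.02% downwards. The 4 arrays of a group lay wholly above those of ESCs for 7 genes at 1 week and 6 at 2 weeks (25.4% and 27.5% of all genes) and wholly below for 9 and 10 (23.1% and 28.1%). From 1 to 2 weeks they lay above for 2 and below for 7 (14.8% and 17.1%). Against ESCs the largest falls at both times were those of PSMB8, PSMB10 and PSME1, which are inducible by interferon. The largest rises were those of PSME3, PSMC2 and PSMC3IP at 1 week and of PSMC3IP, PSME3 and PSMD9 at 2 weeks.

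**Figure D1:**
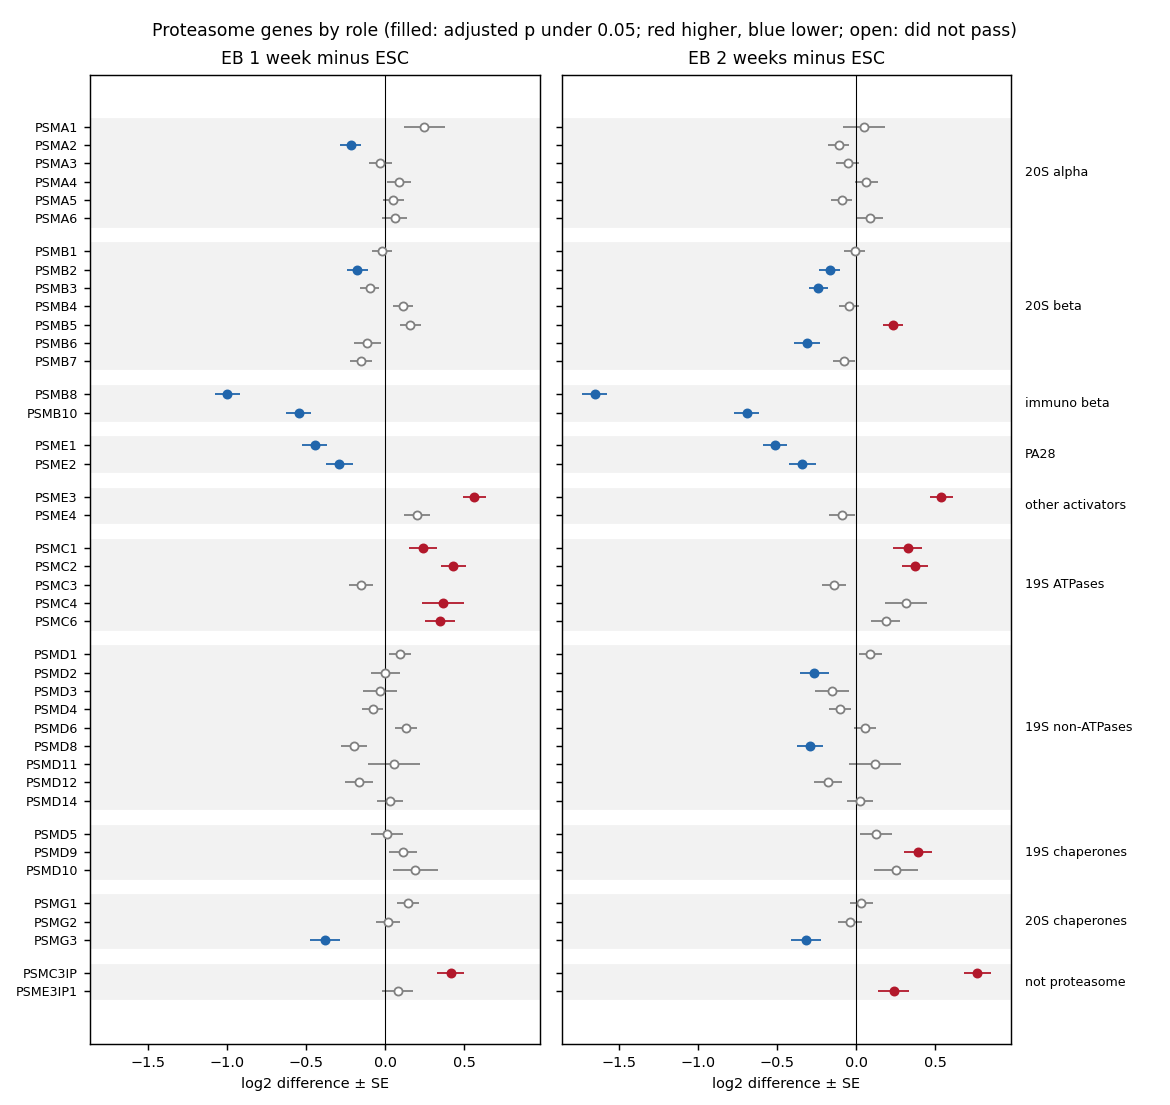
Log2 difference from ESCs with its SE for each of the 41 genes, ordered by role, at 1 week (left) and 2 weeks (right), filled red (higher) or blue (lower) where the adjusted p was under 0.05 and open otherwise. PSMB8 lies farthest from 0, at -0.998 and -1.66, and most constitutive subunits are open.

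The inducible subunits fell together. All 4 that could be tested, PSMB8, PSMB10, PSME1 and PSME2, were lower than in ESCs at both times, and in each the EB arrays did not overlap the ESC arrays, the background for which is given above. Their median difference was -0.50 at 1 week and -0.60 at 2 weeks, against 0.01 and -0.02 for all genes.

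PSMB8 codes for the inducible chymotrypsin-like subunit and lies on chromosome 6 in the MHC. Its level was 9.76, 9.89, 9.86 and 9.78 on the ESC arrays, 8.77, 8.90, 8.83 and 8.79 on the 1-week arrays and 8.30, 8.13, 8.27 and 7.96 on the 2-week arrays. The groups formed 3 separate steps with no overlap. The fall was 1.997-fold at 1 week, just under the 2-fold cut (log2 -0.998 ± 0.08 SE, limma adjusted p = 1.66e-07). It was 3.15-fold at 2 weeks (-1.66 ± 0.08, adjusted p = 4.66e-10). From 1 to 2 weeks PSMB8 fell a further 1.58-fold (-0.66 ± 0.08, adjusted p = 5.39e-05). In the authors' deposited log2 values this step did not pass (-1.08, adjusted p = 0.105) unless 2-week array 2 was left out (-0.59, adjusted p = 0.000736). The difference of PSMB8 was the largest among the proteasome genes in all 3 comparisons.

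The array carries 4 probes for PSMB8, of which 3 were kept. All 3 were lower in EBs, by log2 -1.02 to -0.72 at 1 week and -1.66 to -1.17 at 2 weeks. The brightest, ILMN_2390299, gave the values above and was detected on all 12 arrays, whereas the other kept probes were detected on 8 arrays each. On ILMN_1767006 the ESC arrays themselves split, with 8.27 and 8.47 on the first pair and 7.48 and 7.55 on the second.

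PSMB9, the inducible partner encoded beside PSMB8, was near background. Its brighter probe, ILMN_2376108, read 7.19, 7.17, 6.24 and 6.56 on the ESC arrays, and only the first had a detection p-value under 0.01, at 0.00791. The other ESC values were 0.0105, 0.0264 and 0.0211. In EBs it read 5.06 to 5.29, with detection p-values of 0.148 to 0.517, so every EB array lay below every ESC array, but the level in EBs is only a bound and no fold is given. The second probe, ILMN_1798233, was undetected on all 12 arrays.

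**Figure D2:**
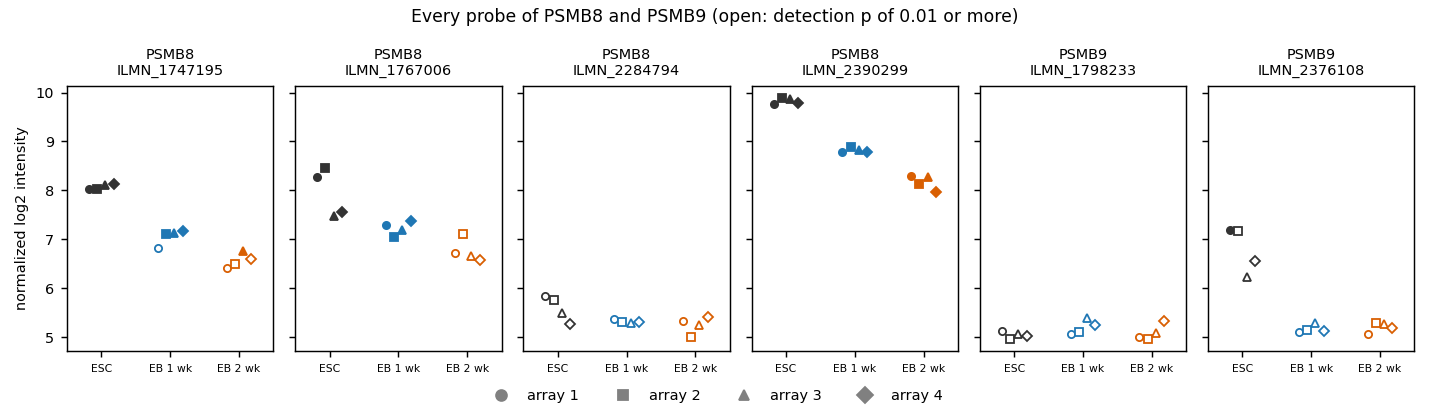
Log2 level of each PSMB8 and PSMB9 probe on each of the 12 arrays by group, filled where the detection p-value was under 0.01. The 3 kept PSMB8 probes lie lower in EBs, and of PSMB9 1 ESC array was detected.

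PSMB10 codes for the inducible trypsin-like subunit. It read 11.86, 11.85, 11.82 and 11.89 in ESCs, 11.39, 11.38, 11.25 and 11.22 at 1 week and 11.31, 10.95, 11.20 and 11.18 at 2 weeks. Both EB groups lay below the ESCs and overlapped each other. It fell 1.46-fold at 1 week (log2 -0.55 ± 0.08, limma adjusted p = 6.86e-05) and 1.62-fold at 2 weeks (-0.69 ± 0.08, adjusted p = 4.70e-06), and the EB groups did not differ by the test (-0.15 ± 0.08, adjusted p = 0.201).

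PSME1 and PSME2 code for the alpha and beta chains of PA28, the ring that caps the core without ATP, and lie close together on chromosome 14. PSME1 read 12.68, 12.66, 12.75 and 12.71 in ESCs, 12.45, 12.19, 12.27 and 12.11 at 1 week and 12.13, 12.21, 12.10 and 12.29 at 2 weeks. PSME2 read 11.46, 11.50, 11.53 and 11.61 in ESCs, 11.11, 11.29, 11.29 and 11.25 at 1 week and 10.99, 11.11, 11.26 and 11.36 at 2 weeks. In both genes every EB array was below every ESC array and the EB groups overlapped. PSME1 fell by 0.44 ± 0.08 on the log2 scale at 1 week and by 0.52 ± 0.08 at 2 weeks (limma adjusted p = 0.000336 and 6.40e-05). PSME2 fell by 0.29 ± 0.08 and by 0.34 ± 0.08 (adjusted p = 0.0105 and 0.00302), and its fall at 1 week was lost when arrays were scaled to equal medians (-0.17, adjusted p = 0.277). Both falls of PSME2 were lost in the authors' deposited log2 values (-0.28 and -0.21, adjusted p = 0.0899 and 0.157) and with arrays averaged in pairs (adjusted p = 0.125 and 0.0641).

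**Figure D3:**
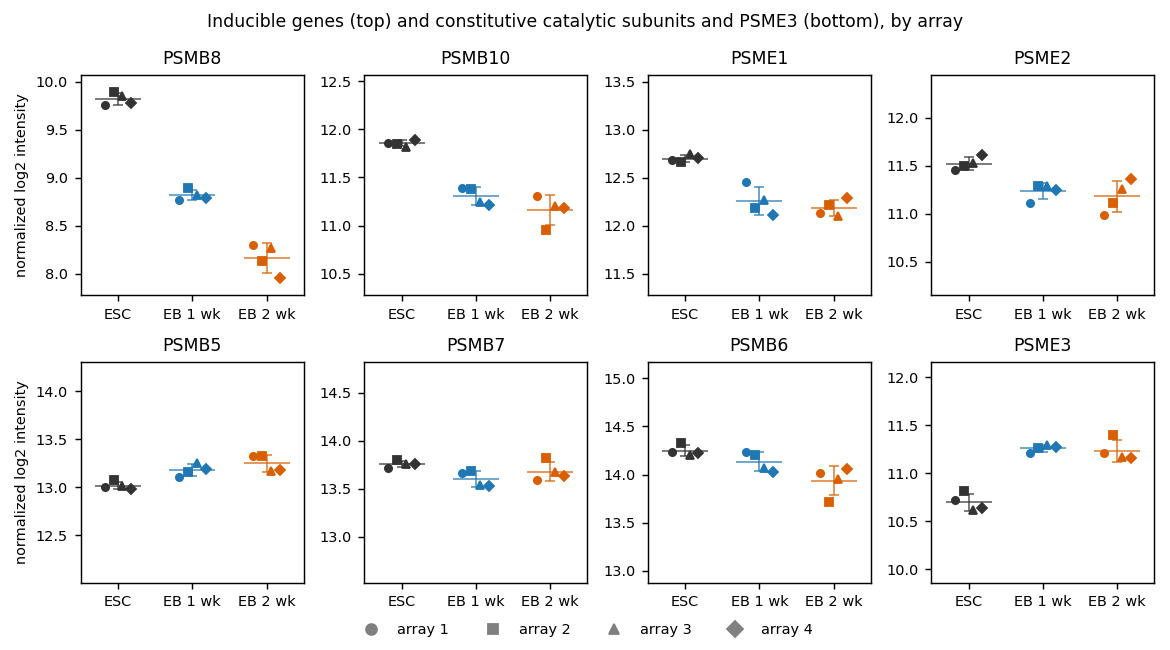
Log2 level on each array of the inducible genes PSMB8, PSMB10, PSME1 and PSME2 (top) and of PSMB5, PSMB7, PSMB6 and PSME3 (bottom), with the mean and SD of the 4 arrays of a group. All panels span the same range of log2 units, and the EB arrays lie below the ESC arrays in the 4 top panels and above them for PSMB5 and PSME3.

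The promoters of the inducible genes are shown because their transcription start regions are known targets of interferon signalling. RefSeq windows from 250 bases before to 50 bases after the start (GRCh38.p14) were found for 36 of the 41 genes, 45 windows in all. The windows printed are PSMB8 at chr6:32843998-32844297 (minus strand), PSMB10 at chr16:67936801-67937100 (minus), PSME1 at chr14:24135944-24136243 (plus), PSME2 at chr14:24146561-24146860 (minus), PSME3 at chr17:42833147-42833446 (plus) and, of the MHC peptide transporter, TAP1 at chr6:32853655-32853954 (minus). Each is written 5′ to 3′ on the gene's strand, with capitals for matches to any of 3 motifs on either strand: the interferon-stimulated response element (ISRE) as GAAA, any 2 bases and GAAA, the gamma-activated sequence (GAS) as TTCNNNGAA and the antioxidant response element (ARE) as TGACNNNGC.
PSMB8: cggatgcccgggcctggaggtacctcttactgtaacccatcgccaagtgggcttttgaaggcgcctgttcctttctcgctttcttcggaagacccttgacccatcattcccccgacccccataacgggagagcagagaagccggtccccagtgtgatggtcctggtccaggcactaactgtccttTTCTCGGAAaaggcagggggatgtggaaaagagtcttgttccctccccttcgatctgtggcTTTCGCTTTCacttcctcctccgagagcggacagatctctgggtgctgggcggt
PSMB10: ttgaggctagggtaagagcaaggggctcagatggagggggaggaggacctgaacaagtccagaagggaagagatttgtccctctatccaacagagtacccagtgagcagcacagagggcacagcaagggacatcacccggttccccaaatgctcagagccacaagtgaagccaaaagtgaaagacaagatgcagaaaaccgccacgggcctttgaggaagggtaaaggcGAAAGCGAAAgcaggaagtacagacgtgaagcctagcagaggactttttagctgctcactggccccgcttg
PSME1: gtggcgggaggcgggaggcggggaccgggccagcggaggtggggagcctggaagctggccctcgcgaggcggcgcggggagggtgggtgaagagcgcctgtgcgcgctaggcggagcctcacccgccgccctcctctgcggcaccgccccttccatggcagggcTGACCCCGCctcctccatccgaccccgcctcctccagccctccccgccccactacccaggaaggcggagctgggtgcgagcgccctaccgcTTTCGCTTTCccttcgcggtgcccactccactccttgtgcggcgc
PSME2: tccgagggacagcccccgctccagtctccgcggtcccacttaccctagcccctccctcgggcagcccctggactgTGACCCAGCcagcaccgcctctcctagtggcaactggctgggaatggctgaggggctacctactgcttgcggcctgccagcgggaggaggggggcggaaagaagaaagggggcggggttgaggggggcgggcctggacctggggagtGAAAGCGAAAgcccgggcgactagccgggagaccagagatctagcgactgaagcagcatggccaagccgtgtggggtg
PSME3: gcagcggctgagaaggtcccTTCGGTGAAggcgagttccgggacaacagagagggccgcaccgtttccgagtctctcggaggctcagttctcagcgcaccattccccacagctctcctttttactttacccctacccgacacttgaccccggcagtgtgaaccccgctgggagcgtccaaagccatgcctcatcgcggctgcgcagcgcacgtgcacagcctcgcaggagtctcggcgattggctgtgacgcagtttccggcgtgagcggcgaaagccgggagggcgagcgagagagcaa
TAP1: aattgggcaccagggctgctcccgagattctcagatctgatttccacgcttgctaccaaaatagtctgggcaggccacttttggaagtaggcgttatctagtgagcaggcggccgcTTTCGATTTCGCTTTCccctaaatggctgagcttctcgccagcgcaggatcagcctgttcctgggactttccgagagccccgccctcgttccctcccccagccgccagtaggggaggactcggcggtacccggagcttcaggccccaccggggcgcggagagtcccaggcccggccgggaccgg

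An ISRE match stood in these windows at position -4 of PSMB8, -21 of PSMB10, 5 of PSME1 and -28 of PSME2, counted to its first base with the start base as 0. TAP1 held 2 overlapping ISRE matches at -134 and -128. No ISRE letters were in the PSME3 window, which had a GAS match at -230, nor in the second PSMB8 window, at chr6:32844630-32844929. PSMB8 also held a GAS match at -65, and PSME1 and PSME2 an ARE match each at -86 and -175.

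Among all 35116 windows of this length 3.57% held an ISRE match, 7.66% a GAS match and 13.3% an ARE match. Among the 45 proteasome windows the shares were 13.3%, 15.6% and 28.9%. ISRE matches were in 6 genes: the 4 inducible ones plus PSMA4 and PSMB4, which did not pass the test in any comparison. A match is a description of letters and not a sign of binding. Motifs can share letters, and besides the pair in TAP1 no matches overlapped in the printed windows.

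The constitutive cutting subunits differed from ESCs by less than PSMB8 and PSMB10 did, and not in 1 direction. At 2 weeks the fall of PSMB6, by 0.31, was close to that of the inducible PSME2, by 0.34. PSMB5, the subunit that PSMB8 replaces, read 13.0045, 13.07, 13.01 and 12.98 in ESCs, 13.11, 13.15, 13.25 and 13.19 at 1 week and 13.33, 13.32, 13.17 and 13.18 at 2 weeks. Every EB array was above every ESC array. It rose by 0.23 ± 0.07 at 2 weeks (limma adjusted p = 0.00703). That call was lost when arrays were scaled to equal medians (0.09, adjusted p = 0.534) and when they were averaged in pairs (adjusted p = 0.130). The difference of 0.16 ± 0.07 at 1 week did not pass (adjusted p = 0.0547).

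PSMB6, the counterpart of PSMB9, read 14.23, 14.33, 14.20 and 14.23 in ESCs, 14.24, 14.21, 14.07 and 14.03 at 1 week and 14.01, 13.72, 13.95 and 14.06 at 2 weeks. The 2-week arrays were all below the ESC arrays and the 1-week arrays overlapped both. It fell by 0.31 ± 0.08 at 2 weeks (limma adjusted p = 0.00534) and was at -0.11 ± 0.08 at 1 week (adjusted p = 0.279). PSMB7, the counterpart of PSMB10, read 13.72, 13.80, 13.75 and 13.75 in ESCs, 13.66, 13.69, 13.54 and 13.52 at 1 week and 13.59, 13.82, 13.68 and 13.63 at 2 weeks. Its 1-week arrays were all below the ESC arrays, but it passed in no comparison (-0.15 ± 0.07, adjusted p = 0.0808 at 1 week, and -0.08 ± 0.07, adjusted p = 0.344 at 2 weeks).

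Ratios on the same array set PSMB8 and PSMB10 against their counterparts, and PSME1 and PSME2 against their relative PSME3. All were lower in EBs. The log2 ratio of PSMB8 to PSMB5, with the ESC mean set to 0, was -1.16 ± 0.08 (SD, n = 4) at 1 week and -1.89 ± 0.15 at 2 weeks, and the groups did not overlap. That of PSMB10 to PSMB7 was -0.39 ± 0.02 and -0.61 ± 0.25, where the 2-week arrays spread from -0.96 on array 2 to -0.38 on array 1. PSME1 over PSME3 was at -1.01 ± 0.17 and -1.05 ± 0.13, and PSME2 over PSME3 at -0.85 ± 0.05 and -0.88 ± 0.24. PSME3 is not a subunit that these 2 replace, and its own rise of 0.56 and 0.54 is part of both ratios. All EB arrays lay below all ESC arrays in each of the 4 ratios. The ratios show unequal change of the pair and were given no test.

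**Figure D4:**
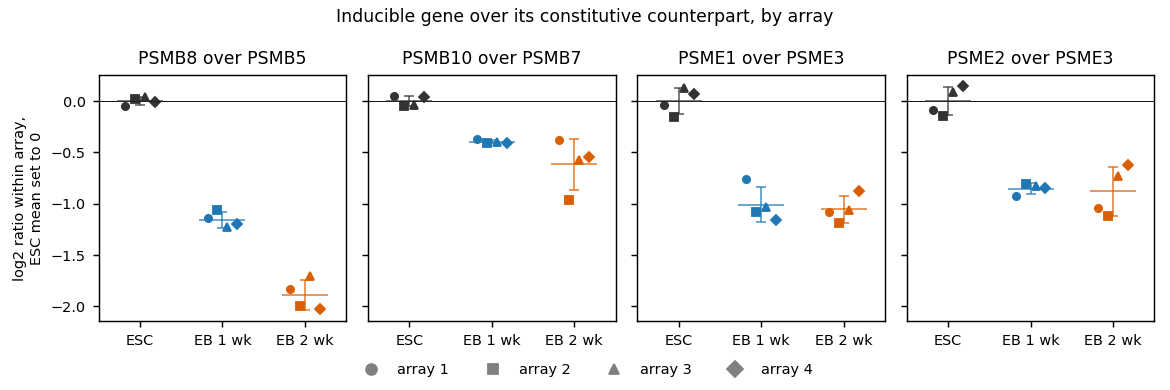
Log2 ratio on each array of PSMB8 and PSMB10 to their constitutive counterparts, and of PSME1 and PSME2 to PSME3, which itself rose. The ESC mean is set to 0, and bars give the mean and SD of 4 arrays. The ratio of PSMB8 to PSMB5 steps from 0 to -1.16 and -1.89, and the other 3 ratios lie below 0 in both EB groups.

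Of the 27 tested subunits of the constitutive 26S proteasome, 4 rose and 2 fell at 1 week, 14.8% and 7.41% against 27.1% and 24.8% of all genes. At 2 weeks 3 rose and 5 fell, 11.1% and 18.5% against 30.7% and 31.8%, and from 1 to 2 weeks 1 fell, 3.7% against 14.1%. None of these reached 2-fold. Their median difference from ESCs was 0.03 at 1 week and -0.05 at 2 weeks, values that the scaling bears on. With arrays scaled to equal medians in place of equal distributions, the median of all 41 proteasome genes was 0.05 at 1 week, -0.15 at 2 weeks and -0.15 between the EB groups, from 0.03, -0.04 and -0.03.

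The outer alpha ring, which gates the entry to the core, had 6 tested genes. PSMA2 fell by 0.22 ± 0.06 at 1 week (limma adjusted p = 0.0120), with 11.24 to 11.33 on the 1-week arrays against 11.46 to 11.60 in ESCs, and was at -0.11 at 2 weeks (adjusted p = 0.149). The fall at 1 week was lost in 4 of the 22 alternatives. Among them were scaling to equal medians (-0.10, adjusted p = 0.487) and averaging arrays in pairs (adjusted p = 0.146). By the probe used, PSMA1, PSMA3, PSMA4, PSMA5 and PSMA6 passed in no comparison, with differences from ESCs between -0.09 and 0.25. The highest, PSMA1 at 1 week, had an adjusted p of 0.126, though its 1-week arrays all lay above the ESC arrays. The fit shares 1 spread across groups, and the SD of PSMA1 was 0.05 in ESCs, 0.06 at 1 week and 0.35 at 2 weeks. Second kept probes gave 0.13 and 0.16 for PSMA1, -0.13 and -0.16 for PSMA3 and 0.24 and 0.23 for PSMA6. For PSMA4 the second probe was at -0.18 and -0.14, against 0.09 and 0.06 on the probe used.

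Of the 7 constitutive beta subunits, 1 fell at 1 week and none rose, 14.3% lower against 24.8% of all genes lower and 27.1% higher. At 2 weeks 1 rose and 3 fell, 14.3% and 42.9% against 30.7% and 31.8%. Beside PSMB5 and PSMB6 those that passed were PSMB2 and PSMB3, which shape the ring without a cutting site. PSMB3 fell by 0.24 ± 0.06 at 2 weeks (limma adjusted p = 0.00309), with 13.25 to 13.35 on the 2-week arrays below the ESC range of 13.48 to 13.59. With arrays averaged in pairs this fall and that of PSMB6 did not pass (adjusted p = 0.0964 and 0.0693). PSMB2 fell by 0.18 ± 0.07 at 1 week and 0.17 ± 0.07 at 2 weeks (adjusted p = 0.0377 and 0.0397), and these calls were lost in 10 and 11 of the 22 alternatives, among them leaving out ESC array 2 (-0.14 and -0.13, adjusted p = 0.106 and 0.116). PSMB1 and PSMB4 passed in no comparison.

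The ring of 19S ATPases unfolds substrates and threads them into the core. Of 5 tested ATPases 4 rose at 1 week, where 27.1% of all genes did, and 2 at 2 weeks, against 30.7%. The median difference was 0.35 and 0.32. PSMC2 read 12.75, 12.80, 12.69 and 12.56 in ESCs, 13.26, 13.15, 13.14 and 12.98 at 1 week and 13.0027, 13.22, 13.05 and 13.02 at 2 weeks, so that EBs and ESCs did not overlap. It rose by 0.43 ± 0.08 at 1 week and 0.37 ± 0.08 at 2 weeks (limma adjusted p = 0.000535 and 0.00125), and the rise at 2 weeks was lost when arrays were scaled to equal medians (0.26, adjusted p = 0.0806).

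The other ATPases rested on weaker evidence. PSMC1 rose by 0.24 ± 0.09 and 0.32 ± 0.09 (limma adjusted p = 0.0388 and 0.00622). Its 1-week arrays, from 13.54 to 13.95, touched the ESC range of 13.46 to 13.55. The call at 1 week was lost in 11 of 22 alternatives and that at 2 weeks in 4. Among these 4 were equal medians (0.15, adjusted p = 0.240) and arrays averaged in pairs (adjusted p = 0.0772). PSMC4 rose by 0.37 ± 0.13 at 1 week (adjusted p = 0.0315), but its ESC arrays split, with 11.11 and 10.98 on the first pair against 10.51 and 10.40 on the second. Without ESC array 3 or array 4 the difference was 0.29 or 0.25 (adjusted p = 0.0976 or 0.101). The call was lost in 9 of the 22 alternatives, among them leaving out any of the 1-week arrays. PSMC6 rose by 0.35 ± 0.09 at 1 week (adjusted p = 0.00707), while its dimmer probe was at -0.10, and the call was lost in 3 of the 22 alternatives. PSMC3 passed in no comparison and was at -0.15 at 1 week and -0.14 at 2 weeks.

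Of 9 tested 19S subunits that are not ATPases none passed at 1 week, where 27.1% of all genes rose and 24.8% fell. At 2 weeks 2 fell, 22.2% against 31.8% of all genes, and none rose, against 30.7%. PSMD8, a subunit of the lid, fell by 0.29 ± 0.08 (limma adjusted p = 0.00675), from 11.05 to 11.37 in ESCs to 10.76 to 10.96 at 2 weeks. The call was lost with arrays scaled to equal medians (-0.31, adjusted p = 0.0675), in the authors' deposited log2 values (-0.24, adjusted p = 0.0528) and with arrays averaged in pairs (adjusted p = 0.0739). PSMD2, a scaffold at the base that receives ubiquitin carriers, read 12.32, 12.22, 12.10 and 12.12 in ESCs, 12.08, 12.11, 12.30 and 12.28 at 1 week and 12.05, 11.68, 12.03 and 11.94 at 2 weeks. It fell by 0.27 ± 0.09 against ESCs and against 1-week EBs (adjusted p = 0.0230 and 0.0480), with the second 2-week array lowest. Without that array the difference from ESCs was -0.18 and did not pass (adjusted p = 0.0635), nor did it without ESC array 1 (-0.22, adjusted p = 0.0668). The fall against ESCs was lost in 6 of the 22 alternatives and that from 1 to 2 weeks in 14.

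By the probe used, the remaining 7 lay between -0.18 and 0.13 against ESCs at both times and passed in no comparison. They include PSMD14, the enzyme that cuts ubiquitin chains off the substrate, at 0.03 and 0.02, PSMD4, a ubiquitin receptor, at -0.08 and -0.10, and PSMD11, a lid subunit known for raising proteasome assembly in human ESCs, at 0.06 and 0.12. PSMD11 had the widest spread of the 41 genes in ESCs (SD 0.36), reading 8.77, 8.84, 9.50 and 9.34. Again arrays 1 and 2 lay apart from arrays 3 and 4. The second kept probe of PSMD6 lay outside the range above, at 0.29 and 0.22, with every EB array above every ESC array.

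PSME3 codes for PA28 gamma, the nuclear relative of PSME1 and PSME2, and went the other way. It read 10.72, 10.82, 10.62 and 10.63 in ESCs, 11.21, 11.27, 11.29 and 11.27 at 1 week and 11.21, 11.40, 11.16 and 11.16 at 2 weeks. All 8 EB arrays were above the ESC arrays. It rose 1.48-fold at 1 week (log2 0.56 ± 0.07, limma adjusted p = 2.20e-05) and 1.45-fold at 2 weeks (0.54 ± 0.07, adjusted p = 2.21e-05), and its second probe gave 0.44 and 0.41.

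PSME4, the PA200 activator, read 11.97, 12.10, 12.26 and 12.29 in ESCs, 12.44, 12.34, 12.30 and 12.34 at 1 week and 12.12, 11.94, 12.07 and 12.12 at 2 weeks. The 1-week arrays were highest, above all arrays of the other groups. It fell by 0.29 ± 0.08 from 1 to 2 weeks (limma adjusted p = 0.0162, or 0.0504 without 1-week array 1). In the authors' deposited log2 values this was -0.10 (adjusted p = 0.585), or -0.21 without 2-week array 2 (adjusted p = 0.0953), and with arrays averaged in pairs the adjusted p was 0.219. The differences from ESCs of 0.20 and -0.09 did not pass (adjusted p = 0.0508 and 0.337). PSMF1, the inhibitor PI31, had 1 probe, which was detected on none of the 12 arrays and was not tested.

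Assembly chaperones differed in direction. PSMD9, a chaperone of the 19S base, read 7.43, 7.59, 7.24 and 7.17 in ESCs, 7.46, 7.44, 7.50 and 7.48 at 1 week and 7.74, 7.72, 7.67 and 7.85 at 2 weeks. The 2-week arrays were above all others. It rose by 0.39 ± 0.09 against ESCs and 0.27 ± 0.09 against 1-week EBs (limma adjusted p = 0.00164 and 0.0337), the second of which was lost in 11 of the 22 alternatives. In the authors' deposited log2 values the first was also lost (0.06, adjusted p = 0.806). PSMG3, a chaperone of the alpha ring, fell by 0.38 ± 0.10 at 1 week and 0.32 ± 0.10 at 2 weeks (adjusted p = 0.00442 and 0.0104). These calls were lost in 3 and 4 of the 22 alternatives. Scaling to equal medians ended both (-0.19 and -0.21, adjusted p = 0.303 and 0.241), as did averaging arrays in pairs (adjusted p = 0.0801 and 0.105). PSMD5, PSMD10, PSMG1 and PSMG2 passed in no comparison by the probe used. All 3 kept probes of PSMD10 were higher at 2 weeks than in ESCs, by 0.25 to 0.34. The probe used gave 0.25 ± 0.14 (limma adjusted p = 0.139), with 2-week array 2 at 11.24 and the other 2-week arrays at 11.94 to 11.99.

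PSMC3IP, which acts in meiotic recombination and not in the proteasome, read 7.92, 7.74, 7.83 and 7.79 in ESCs, 8.21, 8.17, 8.32 and 8.24 at 1 week and 8.44, 8.44, 8.72 and 8.74 at 2 weeks. Its groups formed 3 rising steps without overlap. It rose by 0.41 ± 0.08 and 0.77 ± 0.08 against ESCs and by 0.35 ± 0.08 from 1 to 2 weeks (limma adjusted p = 0.000959, 2.69e-06 and 0.00736), but on its second probe the last step was 0.02, and that call was lost in 5 of the 22 alternatives. PSME3IP1, a binding partner of PSME3, rose by 0.24 ± 0.10 at 2 weeks (adjusted p = 0.0483), a call lost in 14 of the 22 alternatives.

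Genes that act downstream of the immunoproteasome were split. In the list for peptide transport and MHC class I, 12 of 14 genes named on the array were tested, of which 1 rose and 6 fell at 1 week and 2 rose and 5 fell at 2 weeks. The falls, 50% and 41.7% of the list, compare with 24.8% and 31.8% of all genes, and the rises, 8.33% and 16.7%, with 27.1% and 30.7%. TAP1, a chain of the pump that moves peptides into the endoplasmic reticulum and a neighbour of PSMB8 and PSMB9, read 10.52, 10.54, 10.33 and 10.24 in ESCs, 9.39, 9.46, 9.31 and 9.29 at 1 week and 8.85, 8.96, 8.77 and 8.83 at 2 weeks. Like PSMB8 it formed 3 falling steps. The difference was -1.04 at 1 week and -1.55 at 2 weeks (limma adjusted p = 1.18e-07 and 1.02e-09).

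TAP2, the second chain of the pump, fell by 0.30 at 1 week (limma adjusted p = 0.0287) and was undetected on all 2-week arrays, at least 1.64-fold below ESCs (measured means 7.64 and 6.64, adjusted p = 2.24e-06). TAPBP, the loading factor tapasin, fell by 0.63 and by 0.67 (adjusted p = 3.45e-05 and 1.19e-05). B2M, the light chain of MHC class I, rose by 0.59 at 1 week and 1.00 at 2 weeks (adjusted p = 0.00281 and 2.77e-05). Its ESC arrays also split, with 11.15 and 11.11 on the first pair and 10.59 and 10.44 on the second, and all lay below the EB arrays, which read 11.38 to 11.94. HLA-E fell at both times, by 0.46 and by 0.41, and HLA-B rose at 2 weeks by 0.42.

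The list of interferon response genes had 20 of 32 genes tested, of which 3 rose and 10 fell at 1 week and 6 rose and 11 fell at 2 weeks. The falls, 50% and 55% of the list, compare with 24.8% and 31.8% of all genes. The rises were 15% of the list at 1 week, against 27.1%, and 30% at 2 weeks, which is near the 30.7% of all genes. The median difference was -0.20 and -0.30. Among those that fell at both times were ISG15, a ubiquitin-like protein (-0.77 and -0.92), and the membrane proteins IFITM1 (-0.58 and -0.81) and IFITM3 (-0.57 and -0.42). BST2 and IFIT1, also induced by interferon, rose at 2 weeks by 0.90 and 0.49. IFNAR1, a receptor chain, was undetected in ESCs and read 7.47 to 7.57 at 1 week and 7.53 to 7.95 at 2 weeks, at least 1.35-fold and 1.60-fold above the ESCs, whose measured mean was 6.24 (adjusted p = 1.30e-07 and 1.18e-08). IFNAR2, another receptor chain, fell by 0.40 at 1 week and by 0.68 at 2 weeks (limma adjusted p = 0.0118 and 0.000194).

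**Figure D5:**
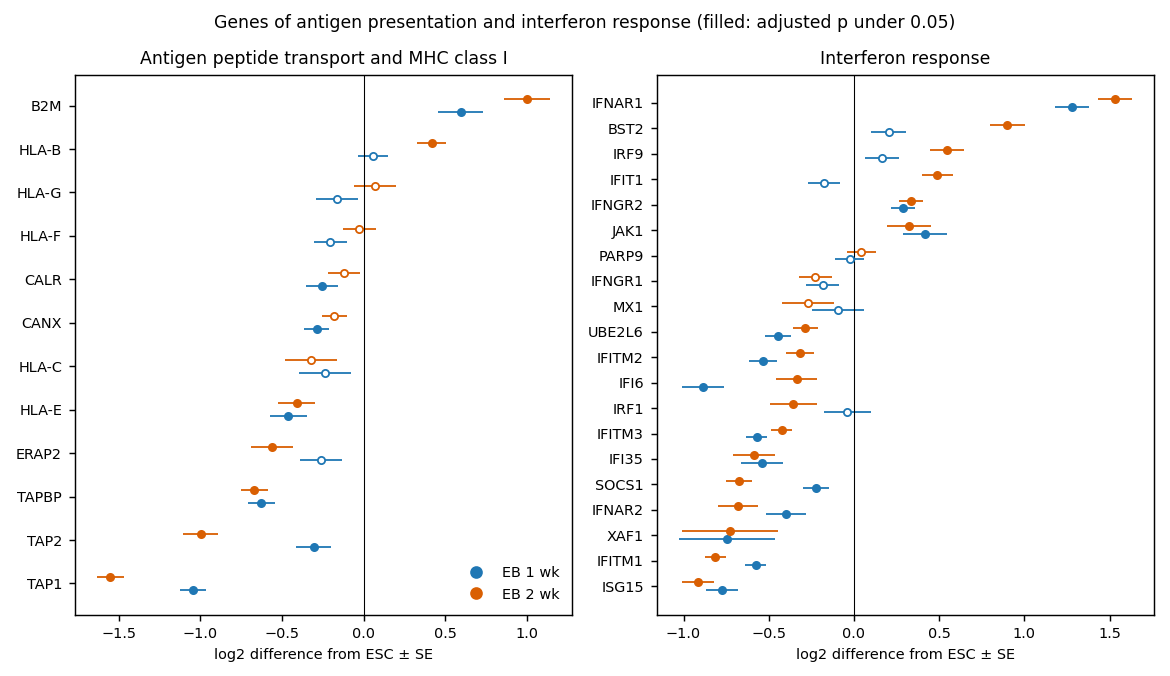
Log2 difference from ESCs with its SE for the tested genes of peptide transport and MHC class I (left) and of the interferon response (right), at 1 week (blue) and 2 weeks (orange), filled where the adjusted p was under 0.05. TAP1, TAP2 and TAPBP lie below 0 beside B2M above it, and the interferon genes lie on both sides.

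Markers of several cell types also differed between ESCs and EBs, in differing directions. Of 9 leukocyte markers, which mark cells known for high immunoproteasome levels, 6 were undetected on all ESC arrays and 5 on all arrays of either EB group, among them PTPRC, the pan-leukocyte antigen CD45. Their summed level was 1279 to 1348 in ESCs, 1606 to 1659 at 1 week and 1420 to 1574 at 2 weeks. Within the list LCP1 rose, to 9.73 and 9.38 from a measured ESC mean of 6.54 where it was undetected, while CORO1A, CD74 and HLA-DRA fell at both times. Summed endothelial markers went from 781.2 to 859.5 in ESCs to 1977 to 2286 and 2643 to 2764, and mesenchyme markers from 3614 to 5478 in ESCs to 48470 to 65460 and 97050 to 113400. Of the 6 pluripotent cell markers none passed at 1 week (median -0.08). At 2 weeks 4 fell (median -0.42), among them NANOG by 0.82 and POU5F1 by 0.67 (limma adjusted p = 5.42e-06 and 0.000271), and their summed level went from 93710 to 98340 in ESCs to 83910 to 97360 and 79870 to 80940. The part of these cell types in the changes of proteasome genes was not tested.

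Factors that are bound to the proteasome but carry no PSM symbol had 15 of 18 genes tested. At 1 week 3 rose and 3 fell, and at 2 weeks 4 rose and 4 fell. These shares, 20% each at 1 week and 26.7% each at 2 weeks, lie near or below those of all genes (27.1% and 24.8%, then 30.7% and 31.8%). Of the shuttle proteins that bring ubiquitinated cargo, RAD23B rose by 0.36 and 0.38, UBQLN2 by 0.18 and 0.28 and UBQLN4 by 0.42 and 0.45. UBQLN1, of the same family, was at 0.14 and 0.07 and did not pass (limma adjusted p = 0.138 and 0.458). ZFAND5, an activator of the proteasome, fell at both times by 0.39 and by 0.39 (limma adjusted p = 0.00142 and 0.00101). AKIRIN2, which brings proteasomes into the nucleus, fell by 0.47 at 2 weeks (adjusted p = 0.000179), without overlap of the groups. USP14, which trims ubiquitin on the cap, also fell by 0.47 at 2 weeks (adjusted p = 0.0201), but there the groups overlapped. Its ESC arrays split, with 11.28 and 11.155 on the first pair and 11.85 and 11.97 on the second. The highest 2-week array read 11.17, above ESC array 2.

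Of 5 tested regulators of proteasome gene transcription, 1 rose and 1 fell at 1 week, 20% each against 27.1% and 24.8% of all genes. At 2 weeks 2 fell, 40% against 31.8%, and none rose, against 30.7%. NFE2L1, the factor that raises proteasome genes when the proteasome is inhibited, was at 0.01 at 1 week and fell by 0.39 at 2 weeks (limma adjusted p = 0.00113). NGLY1, the glycanase that NFE2L1 needs for its activation, fell by 0.19 and by 0.52 (adjusted p = 0.0225 and 8.09e-06). NFE2L2, the oxidative stress factor, rose by 0.31 at 1 week (adjusted p = 0.0449) and was at 0.02 at 2 weeks.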

How the data were processed

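Per the labels, total RNA from 12 samples was labelled with Cy3 for single-colour Illumina bead arrays. The deposited table without normalization held linear intensity values and, beside each, a detection p-value, per the file headers. The deposited series matrix held log2 values made by the authors in a way not given in the sources used here, and served as an alternative. Its direction and log scale were taken from its correlation with the signal, its median was 6.68 in every column, and genes were not centred.

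Signals were background-corrected from the detection p-values (limma 3.58.1 neqc in R 4.3.3, offset 16), quantile-normalized and put on log2. Of 48803 probes, 15921 were detected at p under 0.01 on 4 or more arrays. Those with 1 symbol in the supplied platform annotation, 13586, were reduced to the brightest probe of each of 10562 genes. Of all probes 27578 had 1 symbol and 13 several. All 12 arrays were fitted in limma (lmFit, eBayes, two-sided, Benjamini-Hochberg over all genes), after tests on simulated data. Quantile normalization removes shifts common to most genes, and the offset shrinks differences of dim probes. For a group without detection, "at least" folds use the higher of the probe's level and the lowest detected level, 6.67 to 7.28 across arrays.

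Values per array were given for the inducible and cutting subunits and the 5 largest passing differences of each comparison, and in other lists for genes that passed 2-fold. Further genes were named after their values were seen. The labels give replicate numbers and no shared source. Deviations of same-numbered ESC and 1-week arrays correlated in 4 of 4 pairs above 0.1 (0.138 to 0.245), while 1 of the other 8 pairs exceeded 0.1. But ESC arrays 2 and 4 correlated more closely with a 1-week array of another number (0.251 and 0.219) than with their own (0.229 and 0.138). Over all groups the own number was best in 4 of 12 cases. Whether the numbers pair the arrays is therefore not settled, and a block by replicate number served as an alternative only. The members and lists were chosen with earlier results of these data known.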

Additional observations from a re-analysis of the deposited data

Results flagged for a closer look

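In 9 of 123 sets of 4 arrays, 1 array stood far from the other 3 by Dixon's 95% criterion, which chance exceeds in about 1 of 20 sets. Of these, 6 were 2-week arrays. PSMD10 read 11.24 on 2-week array 2 against 11.94 to 11.99 on the others, and PSMA1 read 12.79 there against 13.46 to 13.52. PSMA5 read 13.27 on that array against 13.32 on the others, a gap smaller than the spread in the other groups. PSMD1 read 12.14 on 2-week array 4 against 12.31 to 12.34, and PSMA6 read 14.35 there against 14.43. PSMD12 read 14.80 on 2-week array 1 against 14.93 to 14.94. In ESCs, PSMD3 read 8.27 on array 1 against 8.68 to 8.74, and PSMA2 read 11.60 on array 3 against 11.46 to 11.47. PSMB2 read 12.63 on 1-week array 1 against 12.72 to 12.73.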

How the results depend on the processing

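PSMB8, PSMB10 and PSMC3IP at 2 weeks, PSMC2 and PSMC3IP at 1 week, and PSME1 and PSME3 at both times kept direction and call against ESCs in all 22 alternatives. PSMB8 ranged from -1.02 to -0.83 at 1 week and from -2.01 to -1.43 at 2 weeks. At 1 week its call and that of PSMB10 were lost only in the series matrix (-0.93 and -0.53, adjusted p = 0.0857 and 0.237). There, 2-week array 2 correlated with its own signal at 0.938, the others above 0.997. Without it, an alternative added after seeing the data, both calls returned (adjusted p = 7.47e-07 and 0.000264).

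Counts of proteasome genes moved more. With 6 higher and 7 lower at 1 week, the series matrix gave 4 and 1, scaling to equal medians 5 and 3, and averaging arrays 1 with 2 and 3 with 4 gave 3 and 3. With 7 higher and 10 lower at 2 weeks, these gave 4 and 6, 4 and 7, and 4 and 3. With 2 higher and 3 lower from 1 to 2 weeks, they gave 0 and 0, 0 and 2, and 0 and 1, the mean of all kept probes gave 1 higher, and the series matrix without 2-week array 2 gave 0 and 1. Averaging leaves 2 values a group. Leaving out 1 array gave 4 to 10 higher and 6 to 9 lower at 1 week, 6 to 9 and 8 to 10 at 2 weeks, and 1 to 3 and 2 to 3 between the EB groups. The 10 came without 2-week array 2. The single rise from 1 to 2 weeks came without 1-week arrays 1, 2, 3 or 4 or 2-week arrays 1 or 4.

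Scaling to equal medians put the median of all genes at 0.13 at 1 week, from 0.01, and at -0.12 between the EB groups, from -0.01, and the share of higher genes among those passing at 70.5% and 24.6%, from 52.2% and 46.7%. The series matrix gave 66.2% between the EB groups. Differences there are relative to these shifts. Signs turned for PSMB5 (-0.0468) and PSMB7 (-0.0239) from 1 to 2 weeks under equal medians. In the series matrix they turned for PSMB6 at 1 week (0.0082, with and without 2-week array 2), PSME3IP1 at 2 weeks (-0.0026) and, from 1 to 2 weeks, PSMD9 (-0.0105), PSME1 (0.0865, or 0.041 without that array) and PSME2 (0.0696). PSME2 also turned without 2-week array 1 (0.0124), the other end of its range with 1 array left out being -0.111. The causes were not tested.

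With the replicate block 6 and 7 genes passed at 1 week, 7 and 10 at 2 weeks, and 1 and 2 between the EB groups. At 1 week it changed the call of no proteasome gene named. No slide or scan was named. Signal over background limits PSMB9 and the dimmer PSMB8 probes.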

Other observations

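Of the 7 genes of ubiquitin supply and of the p97 unfoldase named on the array, 6 were tested. VCP, which codes for p97, rose by 0.31 at 1 week and 0.41 at 2 weeks (limma adjusted p = 0.00681 and 0.00081), and its cofactors NPLOC4 and NSFL1C rose at 2 weeks by 0.29 and 0.25 (adjusted p = 0.0101 and 0.00584). UBA1, the main ubiquitin-activating enzyme, fell by 0.33 and by 0.31 (adjusted p = 0.00358 and 0.00421). UBB, a ubiquitin gene, and UBA6, a second activating enzyme, passed in no comparison.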
